A study of Homo sapiens with 6 samples.

Results

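Among 30784 H3K27ac peaks deposited for the clear cell sarcoma line SU-CCS-1, 685 lay at divergent protein-coding promoters, which is 2.23% of the list (95% Wilson interval 2.07 to 2.40%). A divergent pair was defined as a pair of GENCODE version 44 protein-coding genes on opposite strands, the minus-strand gene on the left, whose outermost annotated start sites lay at most 1000 bases apart. A member peak was at most 5000 bases wide and shared at least 1 base with the stretch from one start site to the other. This definition gave 887 pairs at 824 separate loci, made of 1710 of 20015 protein-coding genes, and 731 of these pairs (82.4%, 79.8 to 84.8%) held a member peak. Pairs that share a gene or a readthrough transcript share peaks, and 80 of the 887 pairs contained a readthrough gene.

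SU-CCS-1 is an established human cell line of clear cell sarcoma, a soft tissue tumor with melanocytic features, and all 6 samples carried the genotype EWSR1::ATF1, a fusion of the N-terminal part of EWSR1 with the DNA-binding part of ATF1. ChIP-seq was performed with an anti-H3K27ac antibody in 3 samples, and 3 input samples of chromatin without immunoprecipitation served as background. No treatment was given in the labels, and the samples describe 1 cell line. The study asked how the fusion relates to active promoters and enhancers, and the comparison made here is among genes within 1 merged peak list.

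A divergent promoter is a stretch of DNA from which neighboring genes are transcribed in opposite directions. Many human promoters of this kind are rich in CpG dinucleotides, lack a TATA box and serve genes that most cells use, such as genes of DNA repair, mitochondria and histones. H3K27ac is deposited on nucleosomes around active start sites, while the stretch directly at the start site is often poor in nucleosomes. ATF1 and related CREB proteins bind the palindrome TGACGTCA.

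The list gave chromosome, start, end and name for each peak, without a score, read count or value per sample. Depth behind a peak is therefore unknown, and no spread between replicates could be calculated. Peaks of 1 list are not replicates of a condition, so no test was made. Intervals given with shares are 95% Wilson intervals and those given with medians are 95% binomial intervals of the middle rank, and both cover counting only. A pair without a listed peak may still carry acetylation below the calling cutoff. Of 7 melanocyte markers examined, 6 (MITF, SOX10, PMEL, MLANA, S100B and DCT) had a peak of any width within 3000 bases of an annotated start, MLANA not by its outermost start, and TYR had none. None of 5 markers of other cells (MYOD1, MYOG, PTPRC, PECAM1 and EPCAM) had one, against 63.4% of all protein-coding genes. In a wider list of melanocyte lineage genes, 4 of the 17 outside divergent pairs (23.5%) had the outermost start site in a peak of at most 5000 bases, and for all genes in no pair this share was 43.6%.

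Sequences of divergent promoters with the canonical ATF/CREB site are shown first, because the fusion contains the DNA-binding part of ATF1. TGACGTCA lay between the start sites of 31 pairs, and 26 of these held a member peak. Pairs that share a gene can share a site, and IRGQ-ZNF576 and IRGQ-SRRM5 hold the same one. The 7 intervals below run from the start site of the minus-strand gene to that of the plus-strand gene on the plus strand of hg38, 5′ to 3′, with TGACGTCA in capitals. They are WFDC3-DNTTIP1 at chr20:45791932-45791954, METTL4-NDC80 at chr18:2571509-2571557, RPL18-SPHK2 at chr19:48619184-48619291, PMS2-AIMP2 at chr7:6009130-6009255, PIDD1-RPLP2 at chr11:809753-809965, H2AC14-H2BC14 at chr6:27814777-27815022 and H2BC12-H2AC12 at chr6:27146855-27147106.
WFDC3-DNTTIP1: gctccagTGACGTCAcggcgcca
METTL4-NDC80: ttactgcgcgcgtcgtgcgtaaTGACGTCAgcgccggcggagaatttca
RPL18-SPHK2: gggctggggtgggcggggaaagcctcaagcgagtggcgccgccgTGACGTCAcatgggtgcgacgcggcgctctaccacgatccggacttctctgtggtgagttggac
PMS2-AIMP2: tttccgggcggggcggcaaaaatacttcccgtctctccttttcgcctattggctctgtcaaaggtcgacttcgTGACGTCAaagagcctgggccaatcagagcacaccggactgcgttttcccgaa
PIDD1-RPLP2: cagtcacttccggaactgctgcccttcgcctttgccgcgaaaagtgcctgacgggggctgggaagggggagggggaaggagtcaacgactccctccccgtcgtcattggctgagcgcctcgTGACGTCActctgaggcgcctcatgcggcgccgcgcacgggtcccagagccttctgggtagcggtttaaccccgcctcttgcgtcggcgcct
H2AC14-H2BC14: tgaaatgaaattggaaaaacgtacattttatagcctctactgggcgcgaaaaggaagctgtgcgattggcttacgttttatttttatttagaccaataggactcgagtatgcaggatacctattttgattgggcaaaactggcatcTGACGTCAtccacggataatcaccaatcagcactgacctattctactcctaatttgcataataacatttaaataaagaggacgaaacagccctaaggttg
H2BC12-H2AC12: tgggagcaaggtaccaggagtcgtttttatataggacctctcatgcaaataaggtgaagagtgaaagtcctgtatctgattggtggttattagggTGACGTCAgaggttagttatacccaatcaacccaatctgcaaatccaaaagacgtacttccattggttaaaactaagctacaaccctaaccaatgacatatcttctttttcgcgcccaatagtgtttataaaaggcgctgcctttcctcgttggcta

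These 7 intervals lay wholly inside a member peak, and they differ in base composition. The shortest, of 23 bases, lay between WFDC3 and DNTTIP1, which encodes a protein of a histone deacetylase complex, under a peak of 1570 bases. Its site stood 7 bases from one start and 8 bases from the other. METTL4-NDC80 held its site 22 and 19 bases from the starts under a peak of 1270 bases, and NDC80 encodes a kinetochore protein. RPL18 and RPLP2 encode proteins of the large ribosomal subunit, and their intervals held 67.6% and 66.7% G and C under peaks of 2980 and 4620 bases. The interval of PMS2, a mismatch repair gene, and AIMP2, a scaffold protein of the tRNA synthetase complex, held 55.6% G and C, 2 matches to CCAAT and 2 to GGGCGG, under a peak of 1810 bases.

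The histone intervals looked different. The stretch between H2AC14 and H2BC14 held 39.0% G and C, 5 matches to CCAAT and 1 to TATAAA, and that between H2BC12 and H2AC12 held 42.1%, 6 matches to CCAAT and 3 to TATAAA. Their peaks measured 2720 and 4120 bases. A match is a description of letters, and the list does not show which factor was bound.

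A second set shows a divergent promoter with other motifs, the melanocyte pair and pairs without a peak. All letters that match any of the 11 motifs searched are in capitals, on either strand. The intervals are ALKBH4-LRWD1 at chr7:102464863-102464956, GPR143-SHROOM2 at chrX:9786297-9786429, CCDC115-IMP4 at chr2:130342699-130342877 and H2BC11-H2AC11 at chr6:27132795-27133043, again on the plus strand of hg38.
ALKBH4-LRWD1: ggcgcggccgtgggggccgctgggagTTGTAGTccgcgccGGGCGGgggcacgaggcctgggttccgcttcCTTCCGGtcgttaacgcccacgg
GPR143-SHROOM2: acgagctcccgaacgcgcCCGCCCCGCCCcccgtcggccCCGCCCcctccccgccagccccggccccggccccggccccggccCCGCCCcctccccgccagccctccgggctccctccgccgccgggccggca
CCDC115-IMP4: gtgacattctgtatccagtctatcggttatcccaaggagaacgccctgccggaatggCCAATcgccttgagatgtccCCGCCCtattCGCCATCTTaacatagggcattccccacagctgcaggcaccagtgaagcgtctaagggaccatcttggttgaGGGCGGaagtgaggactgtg
H2BC11-H2AC11: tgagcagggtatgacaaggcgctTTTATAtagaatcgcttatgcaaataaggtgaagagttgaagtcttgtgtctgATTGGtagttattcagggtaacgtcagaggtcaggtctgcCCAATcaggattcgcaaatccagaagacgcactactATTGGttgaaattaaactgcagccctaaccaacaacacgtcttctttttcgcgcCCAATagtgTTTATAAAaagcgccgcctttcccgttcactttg

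ALKBH4-LRWD1, chosen after its values were seen, held both CCGGAAG and ACTACAA between its start sites, as 7 covered pairs did in all. The interval between GPR143, which encodes a melanosome receptor, and SHROOM2, an actin-binding protein, held 4 matches to GGGCGG and none to the other 10 motifs. The pairs CCDC115-IMP4 and H2BC11-H2AC11 held no peak. Both fell in short gaps between listed peaks, of 210 and 290 bases, so that acetylation was called on both sides of each promoter.

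Start sites of genes in divergent pairs were more often inside a peak than start sites of other genes. Of 1710 genes in pairs, 1332 (77.9%, 75.9 to 79.8%) had the outermost start site in a peak of at most 5000 bases. Over all 20015 protein-coding genes the share was 46.5%, and over the 18305 genes in no pair it was 43.6%. Genes in no coding pair that had a long non-coding RNA (lncRNA) starting upstream on the other strand within 1000 bases were intermediate, at 71.4% of 1418 genes (69.0 to 73.7%). The remaining 16887 genes, called single genes here, had 41.3% of start sites in a peak (40.5 to 42.0%). None of these intervals overlapped. They count each start site as a separate unit, yet both start sites lay in 1 peak in 646 of 887 pairs. A start site in a pair can also be counted through a peak that extends from its close partner. The intervals for pairs are therefore too narrow, and the shares of the classes are not fully alike. Both limits also hold for the split by CpG content below.

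Base composition moved with this difference. A promoter window of 300 bases, from 250 before to 50 after the start site, was called CpG-rich when it held at least 50% G and C and at least 0.6 of the CpG dinucleotides expected from its C and G content. This class held 86.7% of genes in pairs, 87.7% of genes with a divergent lncRNA and 49.3% of single genes. Within CpG-rich windows the shares of start sites in a peak were 82.5% (80.4 to 84.3%), 76.8% (74.4 to 79.1%) and 66.9% (65.9 to 67.9%). Within the other windows they were 48.2% of 228 genes, 32.6% of 175 genes and 16.3% of 8559 genes. The order was thus the same in both classes, with a gap between pairs and single genes of smaller size in CpG-rich windows than over all genes. Expression of these genes was not examined, and its part in the difference was not tested.

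**Figure D1:**
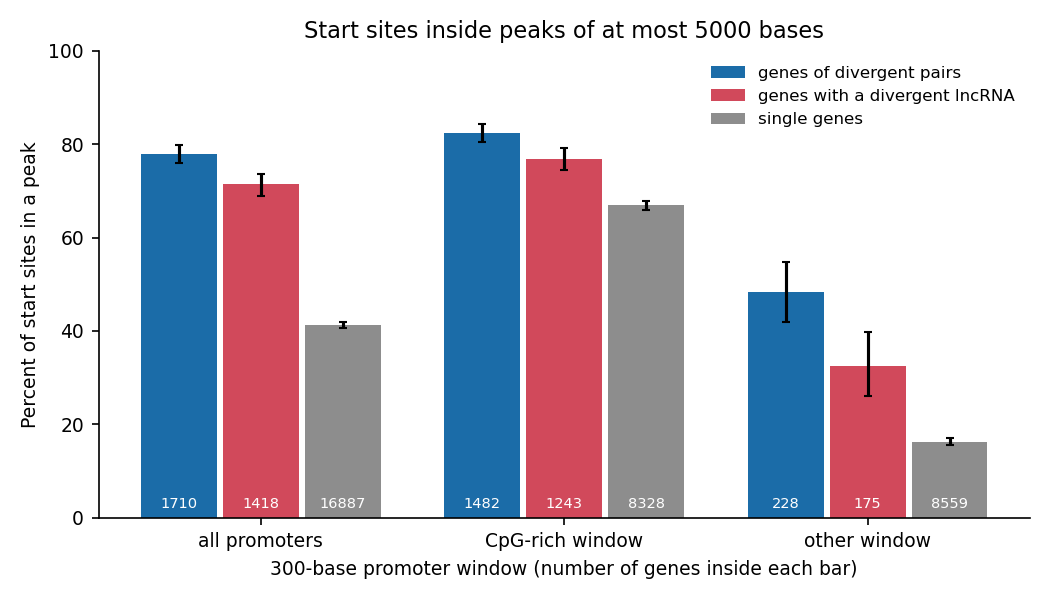
Percent of protein-coding start sites inside a peak of at most 5000 bases, for genes of divergent pairs, genes with a divergent lncRNA and single genes, over all promoters and split by CpG content; bars start at 0, error bars are 95% Wilson intervals and the number of genes stands in each bar. Genes of divergent pairs stand highest in each set of bars, at 77.9%, 82.5% and 48.2%, and single genes lowest, at 41.3%, 66.9% and 16.3%.

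The same held for pairs taken as 1 unit. Of 770 pairs whose 300-base window, centered between the start sites, was CpG-rich, 663 (86.1%, 83.5 to 88.4%) held a member peak, against 68 of the other 117 pairs (58.1%, 49.1 to 66.7%). The median ratio of observed to expected CpG was 0.891 (0.876 to 0.909) in pairs with a member peak and 0.769 (0.713 to 0.832) in the 140 pairs without any peak. Median G and C content was 65% and 62.7%. Pairs without a peak were therefore lower in CpG ratio, by intervals that did not overlap, and close in G and C content.

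Most member peaks spanned the whole stretch between the start sites. Membership requires contact with this stretch. The median distance between start sites was 132 bases, and the median member peak was 1670 bases wide. A high share of member peaks that cover both start sites therefore follows largely from the rule and the widths. Both start sites lay in 1 peak in 646 of 887 pairs (72.8%, 69.8 to 75.7%), and 596 of the 685 member peaks (87.0%, 84.3 to 89.3%) covered both start sites of a pair. In 76 pairs (8.57%) only 1 start site was covered, and in 9 pairs (1.01%) the start sites lay in different peaks. A peak wider than 5000 bases was the only one at 16 pairs (1.80%), and no peak was listed at 140 pairs (15.8%). There was no pair in which member peaks were present but neither start site was covered. At H3C7-H2BC9 a peak of 410 bases lay between the start sites, beside the peaks that covered them.

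Distance between the start sites was short, with a median of 132 bases (quartiles 69 and 248.5), or 233.5 bases with canonical start sites. It was 127 bases (114 to 140) in pairs with a member peak and 135.5 bases (122 to 160) in pairs without any peak, so the intervals of these medians overlapped. A peak was found at 294 of 342 pairs 1 to 100 bases apart (86.0%, 81.9 to 89.2%) and at 58 of 76 pairs over 500 and up to 1000 bases apart (76.3%, 65.6 to 84.5%). Both start sites were in peaks at 82.2% (77.8 to 85.9%) of the first and 52.6% (41.6 to 63.5%) of the second. Coverage of both starts was thus lower at longer distances, while the shares with any peak had overlapping intervals. The cause was not tested. At head-to-head pairs over 1000 and up to 2000 bases apart, outside the definition, 67.5% of 77 pairs held a peak and 32.5% had both start sites in peaks.

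**Figure D2:**
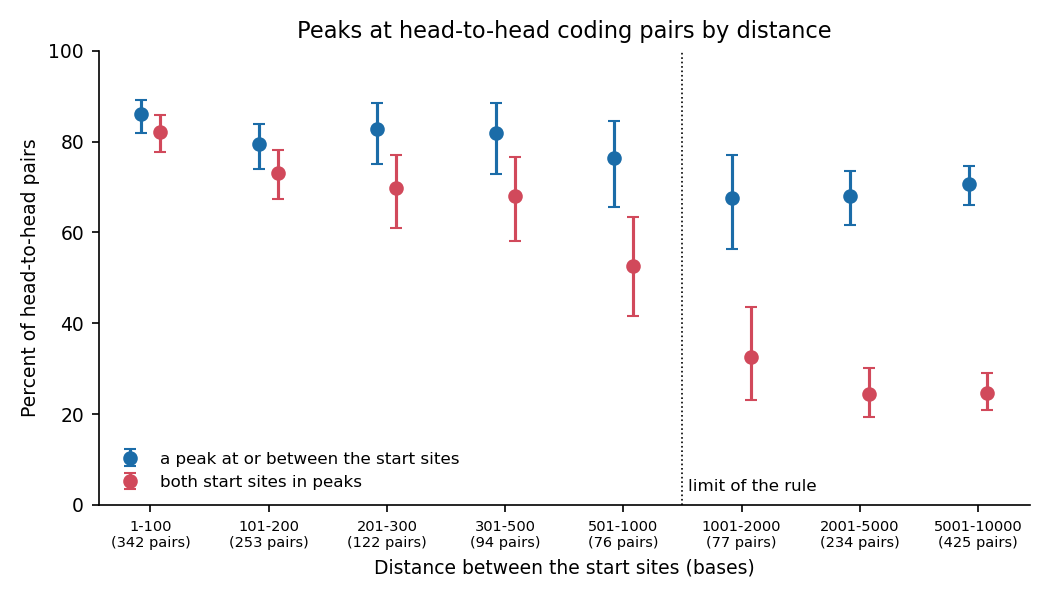
Percent of head-to-head coding pairs with a peak of at most 5000 bases at or between the start sites, and percent with both start sites in such peaks, by the distance between the start sites in bases; points are shares, error bars 95% Wilson intervals, and the dotted line marks the limit of 1000 bases. Both start sites were in peaks at 82.2% of pairs 1 to 100 bases apart and at 24.7% of pairs over 5000 and up to 10000 bases apart.

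The closest covered pairs were NEK1-CLCN3 and NOXO1-GFER, each with start sites 1 base apart, under peaks of 1170 and 1700 bases. NEK1 encodes a kinase and CLCN3 a chloride exchanger, while NOXO1 belongs to an NADPH oxidase and GFER to mitochondrial protein import. At the limit of the definition, PSMB1-TBP, a proteasome subunit and the TATA-binding protein, stood 995 bases apart under 1 peak of 2470 bases. MS4A6A-MS4A4A, expressed mainly in myeloid cells, stood 991 bases apart without a peak. Just outside, TXNDC12-BTF3L4 stood 1008 bases apart and had a peak of 1990 bases.

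Member peaks were slightly wider than peaks at single genes. Their median was 1670 bases (1610 to 1730, quartiles 1250 and 2120), equal to the 1670 bases (1610 to 1720) of peaks at coding genes with a divergent lncRNA. Peaks at single genes had a median of 1520 bases (1500 to 1550), and all peaks of at most 5000 bases one of 1030 bases. Narrow peaks of 1000 bases or less made up 14.5% of member peaks (12.02 to 17.3%) and 20.02% of peaks at single genes (19.1 to 21.0%). Member peaks that covered both start sites had a median of 1745 bases, and the 89 that did not had one of 920 bases. A peak can cover both only if it is wider than their distance, so part of this difference is built into the split.

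The narrowest member peak, of 400 bases against a smallest width of 400 in the whole list, lay at PCSK4-REEP6. Those of H3C7-H2BC9 and FKBP3-FANCM measured 410 bases each, and all of these pairs had a second peak across a short gap. A peak at PEX11A-WDR93 measured 490 bases. The widest, of 4930 bases at chr13:46207361-46212290, lay at LCP1, which encodes an actin-bundling protein of leukocytes and many tumor cells, and LRRC63. IQCG-LMLN followed with 4720 bases, ZNF598-NPW with 4650, PIDD1-RPLP2 with 4620 and H2BC21-H2AC20 with 4530. Just past the limit of 5000 bases stood a peak of 5130 bases at NEMP1-NAB2, and the widest at any divergent pair measured 14020 bases at RHOF-SETD1B.

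Peaks at divergent pairs extended into both genes. Reach was measured as the bases from a start site to the edge of the peak on the side of that gene, in the 646 pairs with both start sites in 1 peak. The median reach was 755 bases into the minus-strand gene (725 to 807) and into the plus-strand gene (723 to 789), but strand is an arbitrary label and equal medians do not show that single peaks were even. By gene length, it was 732.5 bases (697 to 765) into the longer gene and 788.5 bases (748 to 828) into the shorter gene. The peak reached further into the longer gene in 46.1% of pairs (42.3 to 49.99%).

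At single genes the peak was one-sided. Its median reach was 935 bases (921 to 948) into the gene and 535 bases (524 to 548) upstream, and it reached further into the gene at 78.0% of start sites (77.0 to 78.9%). Genes with a divergent lncRNA stood between, with 894 bases into the gene, 705 upstream and 64.9% (61.9 to 67.8%) further into the gene. The smaller reach made up a median of 38.9% of both reaches in divergent pairs (37.7 to 39.8%), 37.6% at genes with a divergent lncRNA (36.6 to 38.4%) and 32.5% at single genes (32.0 to 33.1%). On this measure, which does not depend on strand, the intervals of divergent pairs and genes with a divergent lncRNA overlapped, and both lay above that of single genes. The value for pairs leaves out the 76 pairs with only 1 covered start site, whereas the other classes had no such limit. How far this choice raised the evenness of pairs was not tested.

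**Figure D3:**
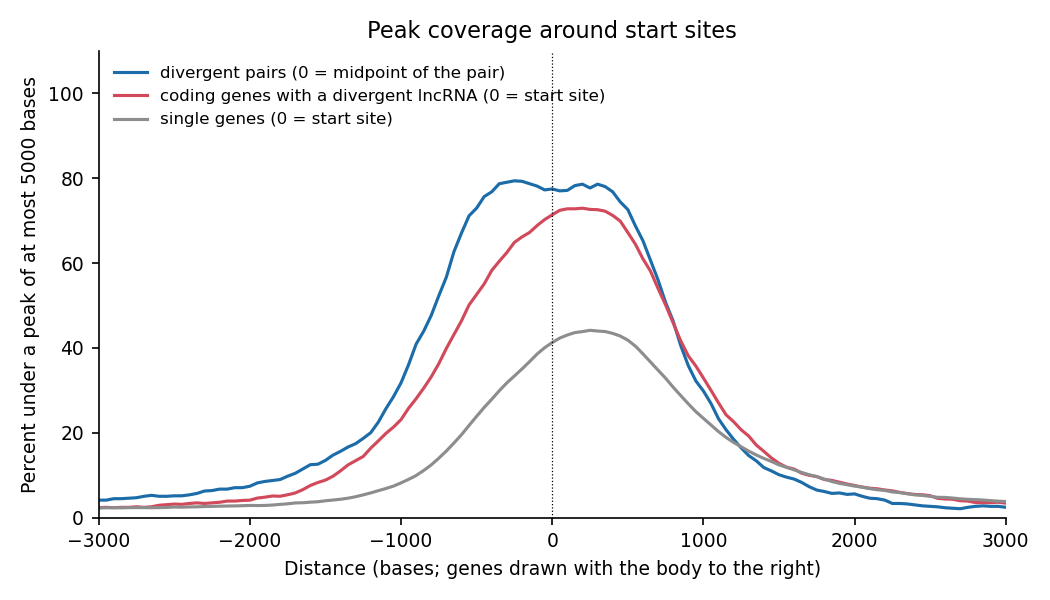
Percent of divergent pairs, of coding genes with a divergent lncRNA and of single genes that lie under a peak of at most 5000 bases, by distance in bases from the midpoint of the pair or from the start site; genes are drawn with their body to the right, and the minus-strand gene of a pair lies to the left. At 500 bases to the left and right, 72.9% and 72.6% of pairs were under a peak, against 23.9% upstream and 41.8% downstream of single genes.

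Single peaks were often uneven. The reaches were within a factor of 1.5 of each other in 295 of 646 pairs (45.7%), and one was at least 3 times the other in 96 pairs (14.9%, 12.3 to 17.8%). The median difference was 335.5 bases. The midpoint of the peak lay between the start sites for 142 of 685 member peaks (20.7%, 17.9 to 23.9%) and within 500 bases of the midpoint of the pair for 83.9%. The first share was 35.5% with canonical start sites and 29.1% when pairs with overlapping heads were included. The most even pair was C1orf109-CDCA8, with reaches of 788 and 789 bases, and CDCA8 encodes a subunit of the chromosomal passenger complex.

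**Figure D4:**
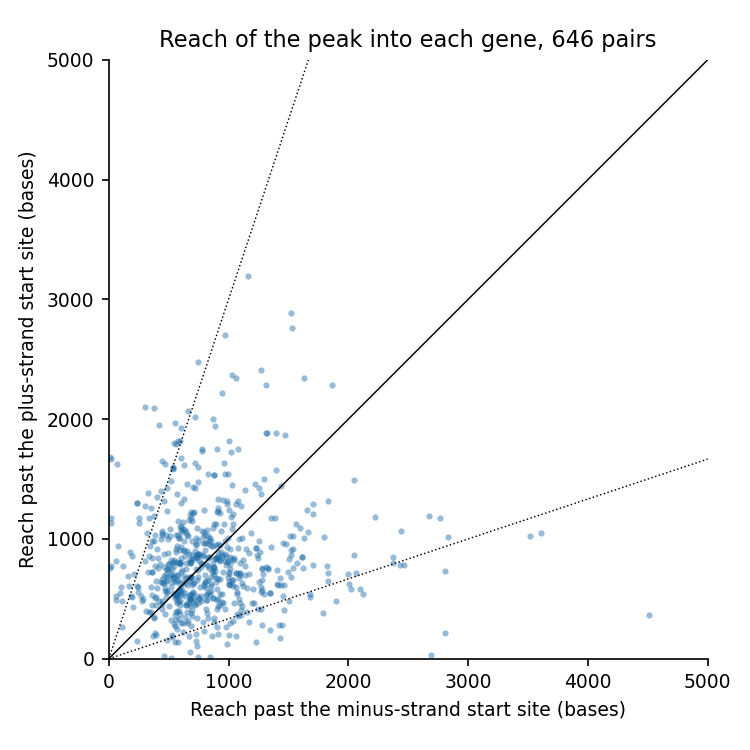
Reach of the peak past the minus-strand start site against reach past the plus-strand start site, in bases, for the 646 pairs with both start sites in 1 peak; each point is a pair, the solid line marks equal reach and the dotted lines mark a factor of 3. Points lie on both sides of the line of equal reach, and 96 lie on or beyond the dotted lines.

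By difference in bases, the most uneven peak reached 4510 bases into LCP1 and 362 bases into LRRC63. It was followed by SPRING1-RNFT2, with 2689 bases into SPRING1, a regulator of sterol signaling, and 32 bases into RNFT2. By factor the order differs, and NOXO1-GFER, named after its values were seen, had reaches of 11 and 1687 bases. At CENPB-CDC25B the peak reached 2809 bases into CENPB, a centromere protein whose gene measures only 2890 bases, and 218 bases into CDC25B, a cell cycle phosphatase. Other one-sided peaks favored IQCG over LMLN (3611 against 1050 bases), ZNF598 over NPW (3520 against 1024), LONP1 over CATSPERD (2811 against 733) and AGPAT1 over RNF5 (2835 against 1015). The plus-strand gene was favored at STX10-IER2, with 3199 bases into the immediate early gene IER2 against 1162 into STX10. It was also favored at STMN3-RTEL1 (2100 against 301 bases, toward the helicase gene RTEL1) and C11orf68-DRAP1 (2706 against 971 bases).

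In 9 pairs the start sites lay in separate peaks, across gaps of 220 to 320 bases where 2 peaks were present. NPAT, a regulator of histone gene transcription, and ATM, the kinase of the double-strand break response, stood 406 bases apart. Their peaks measured 670 and 840 bases, with a gap of 320 bases at chr11:108222651-108222970 between them. RHCE-MACO1 (gap of 260 bases), KCTD9-CDCA2 (220), FKBP3-FANCM (220), PCSK4-REEP6 (250) and APBA3-MRPL54 (290) showed the same arrangement. NDUFA11 stood opposite VMAC and an unnamed gene across 1 gap of 320 bases. H3C7-H2BC9 was spanned by 3 peaks, with a gap of 170 bases between the first 2.

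In the 76 pairs with 1 covered start site, the peak ended a median of 121 bases (66 to 156) short of the other start. The covered start belonged to the longer gene in 51.3% (40.3 to 62.2%), an interval that includes 50%. The largest distance was at C1orf232-ZNF593, where the peak of 730 bases at ZNF593 ended 808 bases from the start of C1orf232. At SYMPK-FOXA3 it ended 659 bases from FOXA3, a forkhead factor of liver and gut, and covered SYMPK, a factor of RNA processing.

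Some pairs without a peak lay directly beside one. Of the 140 pairs without a peak, 45 (32.1%, 24.97 to 40.3%) had a peak within 500 bases of a start site, while the median distance to the nearest peak was 13813 bases. In 21 pairs (15%) both start sites lay in a gap of at most 5000 bases between 2 peaks. The shortest gaps were 210 bases at CCDC115-IMP4, 290 at H2BC11-H2AC11, 310 at NAT9-TMEM104, 340 at LYAR-ZBTB49, 350 at RMND1-ARMT1 and 360 at MAGT1-COX7B. At CCDC115-IMP4 the flanking peaks measured 1060 and 1000 bases and ended 19 and 14 bases from the start sites. Gaps of 470 to 600 bases held PRADC1-CCT7, DTYMK-ING5, EIF3E-EMC2 and SRGAP2B-FAM72D.

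Among pairs without a peak in the gene groups described below, the distance to the nearest peak varied. COL4A4-COL4A3, type IV collagens of specialized basement membranes, lay 160107 bases away and the testis histone pair H2AC1-H2BC1 235264 bases away. Pairs with genes of DNA repair and replication ranged from TK1-AFMID at 213 bases and RAD51D-FNDC8 at 1312 bases to FANCB-MOSPD2 at 396390 bases, with MRE11-ANKRD49 at 49762 bases, RARS2-ORC3 at 90054 bases and PRSS54-GINS3 at 96597 bases between them. MRPL10-LRRC46 lay 61 bases, BTK-RPL36A 237 bases and ATP5MJ-TDRD9 6599 bases from a peak.

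Gene groups differed in how often they stood in divergent pairs. Of 111 genes for DNA repair and replication, 39 (35.1%, 26.9 to 44.4%) stood in a pair, against 8.54% of all protein-coding genes. The shares were 37.0% of 73 replication-dependent histone genes (26.8 to 48.5%), 22.5% of 89 genes of the respiratory chain and ATP synthase (15.04 to 32.2%), 21.8% of 78 genes of the mitochondrial ribosome (14.1 to 32.2%) and 18.8% of 80 chaperone genes (11.7 to 28.7%). They were 12.8% of 86 genes of the cytosolic ribosome, 12.5% of 48 proteasome genes, 8.57% of 35 tRNA synthetase genes and 6.93% of 476 zinc finger (ZNF) genes, and the intervals of these 4 groups include 8.54%. These shares come from the annotation and do not depend on the peaks.

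The share of covered pairs in each group was read against the 82.4% of all pairs. DNA repair and replication pairs stood close to it, at 33 of 39 (84.6%, 70.3 to 92.8%). Among those with a peak were ABHD12-GINS1 (1860 bases wide), BRCA1-NBR1 (2990) and DESI1-XRCC6 (1960), with a subunit of the replicative helicase complex, a homologous recombination factor and the Ku70 end-binding protein. The 6 without a peak were FANCB-MOSPD2, MRE11-ANKRD49, PRSS54-GINS3, RAD51D-FNDC8, RARS2-ORC3 and TK1-AFMID. MRE11 and RAD51D also act in the repair of double-strand breaks, so genes of that pathway stood on both sides.

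Histone pairs had a member peak in 10 of 15 (66.7%, 41.7 to 84.8%), with 3 more under a wider peak only and 2 without any. Their median width was 2550 bases, and examples are H2AC14-H2BC14 (2720 bases), H2AC15-H2BC15 (3580) and H2AC7-H2BC7 (2380). H2AC17-H2BC17 lay under a wider peak. Cytosolic ribosome pairs had a member peak in 10 of 11, with a median width of 2285 bases, including MED22-RPL7A (2440), RPL12-LRSAM1 (1840) and RPL18-SPHK2 (2980). The exception was BTK-RPL36A, where BTK encodes a kinase of B cells.

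Pairs of the mitochondrial ribosome had a member peak in 17 of 18, with a narrower median of 1340 bases, including FAU-MRPL49 (1820), HELQ-MRPS18C (1340) and MRPL46-MRPS11 (1180), which pairs a large with a small subunit protein. MRPL10-LRRC46 had none. Respiratory chain pairs had one in 19 of 21, such as AKAP3-NDUFA9 (1300), ATP5F1A-HAUS1 (1250) and CCDC127-SDHA (2270), and ATP5MJ-TDRD9 and MAGT1-COX7B had none. Proteasome pairs had one in 6 of 6 and chaperone pairs in 14 of 15, the exception being PRADC1-CCT7. Zinc finger pairs had one in 27 of 30, with a median width of 1410 bases, and tRNA synthetase pairs in 2 of 3. The Wilson interval of each of these groups includes 82.4%, so no group could be told from all pairs at these numbers.

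Of the 19 melanocyte lineage genes, 2 stood in a divergent pair. GPR143-SHROOM2 had a peak of 980 bases that covered both start sites, 132 bases apart. PMEL, which encodes the fibril protein of melanosomes, stood 596 bases from RAB5B by outermost start sites, and the peak there was 5530 bases wide at chr12:55968151-55973680 and so outside the width limit. By the start of the Ensembl canonical transcript, PMEL stood 788 bases from CDK2, and a peak of 1660 bases at that pair covered the start of CDK2. None of 21 genes on a list drawn up around the study stood in a pair by outermost start site. The list also holds NR4A2 and NEDD9, which the text of the study does not name. By canonical start EWSR1, the 5′ partner of the fusion, stood 287 bases from RHBDD3, under a peak of 2970 bases at chr22:29266511-29269480. The list cannot tell the rearranged from the normal copy of EWSR1.

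Of 10 well known divergent pairs that met the definition, 8 held a member peak (80%, 49.02 to 94.3%), close to the 82.4% of all pairs. PPAT and PAICS, enzymes of purine synthesis, stood 126 bases apart under a peak of 1150 bases that reached 794 bases into PPAT and 229 into PAICS. PRKDC and MCM4, the DNA-dependent kinase and a replicative helicase subunit, stood 7 bases apart under 2520 bases, with 777 bases into PRKDC and 1735 into MCM4. SARS2-MRPS12 had a peak of 1860 bases, PDCD10-SERPINI1 one of 1760 bases and SIRT3-PSMD13 one of 1780 bases. TK1-AFMID, with thymidine kinase, had none. Pairs by canonical start only were HSPD1-HSPE1, the mitochondrial chaperonin genes, with a peak of 3250 bases, COL4A1-COL4A2 (2700), TAP1-PSMB9 (2370), NDUFS3-KBTBD4 (1960), BCS1L-ZNF142 (1410) and SURF1-SURF2 (1370). RANBP1-TRMT2A did not meet the definition in this annotation.

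The type IV collagen genes form divergent pairs that differed among themselves. COL4A1-COL4A2, which encode the widespread chains and pair by canonical start only, had the peak of 2700 bases. COL4A6-COL4A5 had a peak of 820 bases that covered 1 start site, and COL4A4-COL4A3 had none.

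Motifs were searched on both strands in the 300-base window centered on each pair. The 11 motifs comprised the ATF/CREB site TGACGTCA and its flexible form TGANNTCA, in which N is any base. The AP1 site was TGAGTCA, the core of the NRF1 site was CGCANGCGC and the ETS site was CCGGAAG. The YY1 site was AAGATGGCG, and a part of the ZNF143 site was ACTACAA. General promoter elements were the GC box with the letters GGGCGG, the NFY box with the letters CCAAT, the start of the TATA box with the letters TATAAA and the E-box with the letters CACGTG. TGANNTCA includes every TGACGTCA, and motifs may share bases. A pair has start sites on both sides of its window, whereas the window of a single gene holds 1 start site, so the windows are not equal in kind. The motif intervals count each pair as a separate unit, yet the 731 covered pairs lay at 676 loci. Windows of pairs at 1 locus can overlap, so the intervals for pairs are too narrow.

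TGACGTCA was found in 32 of 731 covered pairs (4.38%, 3.12 to 6.11%). It was found in 2.29% of the promoter windows of all protein-coding genes, 3.95% of windows of genes with a divergent lncRNA and the start in a peak, and 3.18% (2.80 to 3.62%) of those of single genes with the start in a peak. Within CpG-rich windows the shares were 4.37% in covered pairs (3.06 to 6.21%) and 3.62% in single genes in peaks (3.16 to 4.15%), and these intervals overlapped. Of 35 pairs with the site in the window, 32 (91.4%, 77.6 to 97.0%) had a member peak, against 82.0% (79.3 to 84.5%) of 852 pairs without it. Member peaks of pairs with the site had a median width of 1735 bases (1440 to 2190), against 1670 (1610 to 1730). A difference tied to TGACGTCA was therefore not detectable among divergent pairs at these numbers. HES4-ISG15, with the interferon-stimulated gene ISG15, held 2 sites between its start sites under a peak of 3610 bases.

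The flexible and AP1 sites were less frequent in covered pairs than in all promoters. TGANNTCA was found in 6.57% of covered pairs (4.99 to 8.60%) and 10.9% of all promoters, and TGAGTCA in 1.37% (0.745 to 2.50%) and 3.98%. Against single genes with the start in a peak and a CpG-rich window, the shares were 6.64% and 7.90% for TGANNTCA and 1.21% and 1.92% for TGAGTCA, with overlapping intervals. TATAAA was found in 4.51% of covered pairs and 10.8% of all promoters, and within CpG-rich windows in 2.71% (1.72 to 4.25%) of covered pairs and 3.75% (3.28 to 4.28%) of single genes in peaks.

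With pairs as defined here, the ETS, NRF1 and ZNF143 letters were more frequent in covered pairs than at single genes. CCGGAAG was found in 29.3% of covered pairs (26.1 to 32.7%), 17.1% of single genes in peaks (16.2 to 18.0%) and 11.9% of all promoters. Within CpG-rich windows the shares were 30.3% (26.9 to 33.9%) and 19.1% (18.1 to 20.2%). CGCANGCGC was found in 21.7% (18.7 to 25.02%) and 17.0% (16.0 to 18.0%) of these windows, and ACTACAA in 6.49% (4.85 to 8.62%) and 3.57% (3.11 to 4.09%). For these 3 motifs the intervals of pairs and single genes did not overlap, narrowly for CGCANGCGC. Including pairs with overlapping heads changed this for CGCANGCGC and ACTACAA. Over all windows, covered pairs then held them in 15.5% (13.5 to 17.7%) and 4.91% (3.81 to 6.31%). Single genes in peaks held them in 14.2% (13.4 to 15.0%) and 3.59% (3.17 to 4.05%), with overlapping intervals. CCGGAAG, then at 24.6% (22.2 to 27.2%), stayed above its 17.1% in single genes. Over all windows, genes with a divergent lncRNA and the start in a peak held CCGGAAG in 23.5% (21.01 to 26.2%) and CGCANGCGC in 17.4% (15.2 to 19.8%), and both intervals overlap those of covered pairs, narrowly for CCGGAAG. Covered pairs held CGCANGCGC in 19.8% (17.1 to 22.9%). ACTACAA was found in 2.27% of these genes (1.52 to 3.39%) and in 6.57% of covered pairs (4.99 to 8.60%), without overlap of the intervals. Of 50 pairs with ACTACAA, 48 (96%, 86.5 to 98.9%) had a member peak, against 81.6% (78.8 to 84.1%) of pairs without it. Of 240 pairs with CCGGAAG, 214 (89.2%, 84.6 to 92.5%) had one, against 79.9% (76.6 to 82.8%) of pairs without it. These shares were not split by CpG content, which itself went with coverage (86.1% of CpG-rich pairs and 58.1% of the others). The part of CpG content in them was not tested.

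When only the bases between the start sites were searched, CCGGAAG was found in 17.4% of covered pairs, so many matches lay past a start site, on the side of a gene. The same was seen for AAGATGGCG, with 4.24% of windows and 0.410% of the stretches between start sites. GGGCGG was found in 72.8% of covered pairs and 52.4% of all promoters. Within CpG-rich windows it was found in 76.0% of covered pairs and 79.7% of single genes in peaks. CCAAT was found in 39.9% of covered pairs and 35.9% of all promoters, and CACGTG in 10.5% and 8.35%. Single genes with the start in a peak held them in 34.8% and 10.1%. Within CpG-rich windows, CCAAT was found in 37.7% of covered pairs and 34.3% of single genes in peaks, and CACGTG in 10.9% and 10.7%. For both motifs the intervals in CpG-rich windows overlapped.

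**Figure D5:**
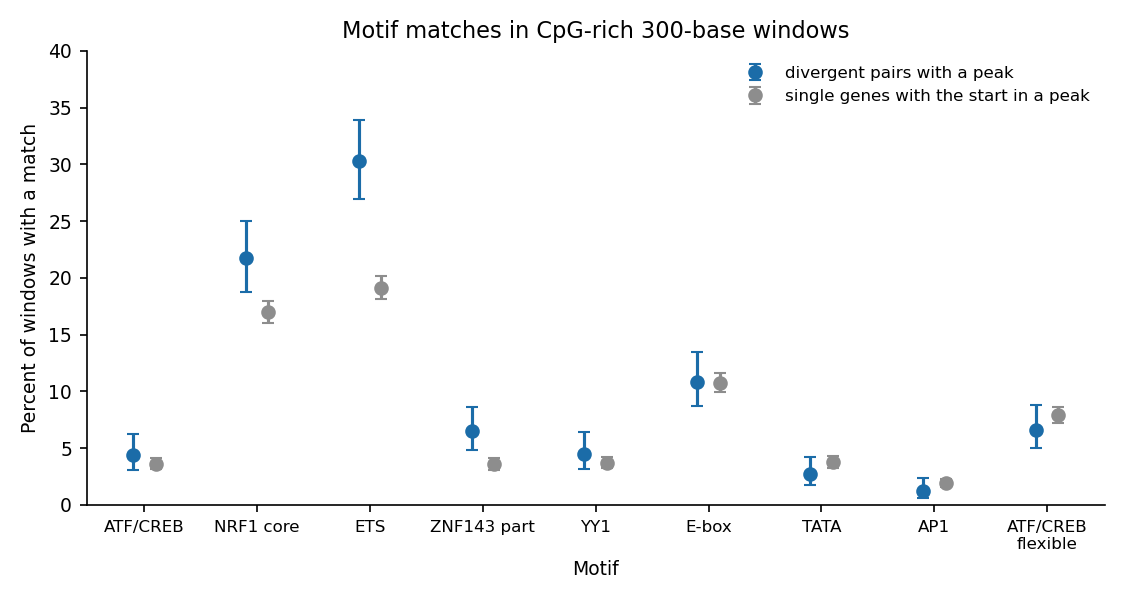
Percent of CpG-rich 300-base windows with at least 1 match to each of 9 motifs, for divergent pairs with a peak (663 windows, centered on the pair) and single genes with the start site in a peak (5573 windows); points are shares and error bars 95% Wilson intervals. The ETS letters were found in 30.3% of windows of pairs and 19.1% of windows of single genes, while the bars of the ATF/CREB site overlap.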

How the data were processed

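H3K27ac ChIP-seq was performed on 3 SU-CCS-1 samples, with 3 inputs. Per the study's methods and the submitters' processing notes, alignment by the authors used BWA-MEM (BWA 0.7.10-r789) and hg38; they removed duplicates, called broad peaks with MACS2 2.2.6 against input and removed denylisted regions. The authors deposited 1 merged list of 4 columns, which holds positions and names and no counts or scores. Replicate signal tracks were averaged, but how replicates were merged in the peak list is not given in the sources used here. All positions fell on a grid of 10 bases. Broad calling joins neighboring stretches, so widths and gaps depend on the joining rule and the cutoff.

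Coordinates are counted from 1. Genes, start sites and readthrough tags came from GENCODE 44, and genes shared by X and Y were counted once. Overlaps, motif matches and base composition were computed from the hg38 sequence with Python 3.11.15 and scipy 1.17.1, and figures with matplotlib 3.10.9. The pairing and motif steps were checked on simulated data with known answers. With 1 merged list no test between samples was possible. Pairs were named by list membership, by the extremes of width, distance, reach and gap, and by TGACGTCA between the start sites. The members, gene lists and motifs were chosen with earlier results of these data known. The split by CpG content, the merging of loci and the repeat of start-site shares and reaches by canonical start were chosen after the data were seen. Some pairs that the naming rule covers are not reported here.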

Additional observations from a re-analysis of the deposited data

How the results depend on the processing

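No paired analysis was possible because peaks carry no replicate label, and for the same reason no replicate could be left out. In all, 46 repeats of the main values were made, of which 30 stayed within the interval of the value reported, and 63 of 81 repeats of the other motif shares did. With the start of the Ensembl canonical transcript, 984 pairs were found, with a median distance of 233.5 bases, a member peak at 88.9% of pairs and the peak midpoint between the start sites in 35.5%. Start sites in a peak came to 84.5% of genes in pairs and 48.7% of genes in no pair. At the latter the median reach was 857 bases into the gene and 604 upstream, with 70.8% further into the gene. With the widest 50% of all peaks, 70.5% of pairs were covered, 94.5% of member peaks covered both start sites and the median width was 1790 bases. When a peak had to cover at least 50% of the interval, these shares were 77.3% and 94.0%. With start sites at most 500 bases apart, 90.5% of member peaks covered both. With overlapping heads included, 29.1% of midpoints lay between the start sites. The shares of covered pairs with CCGGAAG, CGCANGCGC and ACTACAA were then 24.6%, 15.5% and 4.91%. CpG-rich windows alone gave 86.1% of pairs covered. The cause of these shifts was not tested. The list holds no depth, so a missing peak is not evidence of a missing mark.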

Other observations

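Coverage of divergent pairs differed by chromosome. On chromosome 17 a member peak lay at 35 of 58 pairs (60.3%) and on the X chromosome at 13 of 26 (50%), against 82.4% of all pairs. On chromosomes 13, 18 and 21 it lay at each pair, 16, 9 and 6 in number, and on chromosome 10 at 22 of 23. Chromosome 6, with the histone clusters, had 45 of 61 (73.8%). Copy number of the line was not examined.

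Member peaks mostly stood alone. The median gap to the nearest other peak was 17890 bases (15190 to 20700), and 58.7% had no other peak within 12500 bases. These values were 20000 bases and 60.4% for peaks at single genes, and 26980 bases and 66.7% for peaks at genes with a divergent lncRNA. Over all peaks of at most 5000 bases they were 4350 bases and 36.5%. Another peak within 1000 bases was found beside 15.2% of member peaks (12.7 to 18.1%), 11.7% of peaks at single genes (10.9 to 12.5%) and 35.6% of all peaks.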
